A study of Mus musculus with 11 samples.

Results

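Messenger RNA of the muscle side of the nerve-muscle synapse was followed across 3 genotypes of mouse gastrocnemius. The 10 genes described were chosen by name, with earlier results of these data known. They are the muscle acetylcholine receptor subunits Chrna1, Chrnb1, Chrnd, Chrne and Chrng, the clustering genes Musk, Dok7, Rapsn and Lrp4, and the collagen tail gene Colq. Each matched 1 row of the deposited tables, which hold 55487 genes, and 7 of the 10 passed the filter on low counts that left 10505 genes for testing. The RNA came from whole gastrocnemius, a hind-limb muscle, of 11 mice sequenced as 1 library each by 3' tag sequencing, which counts a short read near the poly(A) end of each transcript. P-values measure the spread between these samples, which may in part be technical. The 4 double-knockout mice (dKO) carried floxed Raptor and floxed mTOR alleles, and the 3 Raptor-knockout mice (KO) carried floxed Raptor alone. In both, the human skeletal actin promoter, active in muscle fibres, drove a Cre that tamoxifen switches on through its mutated oestrogen receptor domain. The 4 wild-type mice (WT) were the controls, and which of these alleles they carried is not given in the sources used here. According to the labels all 3 groups received tamoxifen, from 3 months of age and for 7 weeks in chow, and muscle was taken 7 months after it began. The study named dKO against WT and dKO against KO as its contrasts, and KO against WT is the remaining pair.

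The nicotinic receptor of muscle is a pentamer of alpha, beta, delta and a variable subunit, which is gamma (Chrng) in fetal and denervated muscle and epsilon (Chrne) at the adult endplate. Agrin released by the motor nerve binds Lrp4 and activates the kinase MuSK, which with its adaptor Dok7 drives the scaffold protein rapsyn (Rapsn) to cluster receptors. In innervated adult fibres these genes are transcribed mainly by the few nuclei beneath the synapse, and electrical activity represses the receptor genes elsewhere. After denervation the receptor subunits, Chrng among them, are transcribed along the whole fibre, with myogenin (Myog) as an activator that binds E-boxes, short DNA motifs in their promoters.

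Library totals ran from 2791339 to 6328533 expected counts. Rptor, the gene of Raptor, was at 5.37, 5.12, 4.77 and 4.07 CPM (counts scaled to a common library total) in dKO, at 3.85, 4.87 and 4.99 CPM in KO, and at 10.6, 9.65, 10.5 and 8.57 CPM in WT. Both knockout groups lay below every WT library for Rptor (edgeR adjusted p = 0.00156 for dKO against WT and 0.00282 for KO against WT). Mtor averaged 35.9 ± 3.36 CPM in dKO, 20.6 ± 2.24 CPM in KO and 20.8 ± 5.95 CPM in WT (SD, n = 4, 3 and 4), so it was higher and not lower in dKO (adjusted p = 0.00534 against WT). The labels do not say which Mtor exons were floxed, and a 3' tag outside the excised part does not check a deletion. The libraries also differ in ways other than genotype. dKO replicates 3 and 4 were in a smaller sequencing run, and Xist, a transcript of female cells, was present in 3 of 4 dKO, 0 of 3 KO and 1 of 4 WT libraries. Within the groups, WT replicate 4 and KO replicate 2 stood apart from the rest. Compared as counts over genes, pairs with WT replicate 4 gave a chi-square per degree of freedom of 40.1 to 47.2, against 8.90 to 19.3 for other WT pairs. Pairs with KO replicate 2 gave 25.2 and 26.2, against 3.34 for the other KO pair. In dKO, pairs with replicate 2 gave 8.49 to 18.7, against 6.39 to 8.67 for the other dKO pairs. Of the 10 genes, 6 were called higher in dKO and 5 in KO with all libraries, 6 and 6 without WT replicate 4, and 4 in KO without KO replicate 2.

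The 250 bases before the transcription start are shown for Chrna1 and Chrnb1, which had the smallest adjusted p among the 10 genes, and for Chrng and Chrne, the fetal and adult alternatives. They are RefSeq sequences on GRCm38.p6, at chr2:73580339-73580588 on the minus strand for Chrna1, chr11:69795938-69796187 on the minus strand for Chrnb1, chr1:87205561-87205810 on the plus strand for Chrng and chr11:70619195-70619444 on the minus strand for Chrne. GENCODE M21 places the start of Chrng further upstream, at chr1:87204657, so the Chrng window lies inside that gene, and its distances are from the RefSeq start. Each is written 5' to 3' in the direction of the gene, and capitals mark the E-box CANNTG and the N-box CCGGAA, a motif known from epsilon and delta subunit promoters.
Chrna1: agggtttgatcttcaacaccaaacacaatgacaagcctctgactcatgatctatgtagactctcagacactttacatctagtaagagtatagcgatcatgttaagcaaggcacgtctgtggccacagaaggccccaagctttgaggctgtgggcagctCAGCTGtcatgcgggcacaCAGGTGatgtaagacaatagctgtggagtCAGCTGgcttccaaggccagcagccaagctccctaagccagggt
Chrnb1: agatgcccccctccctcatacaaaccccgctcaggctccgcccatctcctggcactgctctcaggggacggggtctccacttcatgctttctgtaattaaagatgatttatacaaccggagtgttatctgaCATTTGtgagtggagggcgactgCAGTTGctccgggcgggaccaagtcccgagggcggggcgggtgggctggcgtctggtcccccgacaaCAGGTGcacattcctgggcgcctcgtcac
Chrng: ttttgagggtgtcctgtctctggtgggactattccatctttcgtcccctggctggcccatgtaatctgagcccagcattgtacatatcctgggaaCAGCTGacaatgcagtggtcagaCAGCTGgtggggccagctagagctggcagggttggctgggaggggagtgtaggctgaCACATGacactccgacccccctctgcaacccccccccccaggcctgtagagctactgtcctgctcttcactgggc
Chrne: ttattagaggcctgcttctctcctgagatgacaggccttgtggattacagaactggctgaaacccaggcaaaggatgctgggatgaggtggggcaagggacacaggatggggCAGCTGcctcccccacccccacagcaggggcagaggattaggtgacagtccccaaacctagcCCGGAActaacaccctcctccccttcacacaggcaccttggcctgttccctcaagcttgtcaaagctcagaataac
Both strands were searched for CANNTG, for its form CAGCTG, and for CCGGAA, and 6 of the 10 genes had a promoter in the table. Chrna1, Chrnb1 and Chrng each held 3 copies of CANNTG, as 12.2% of all 32851 promoter windows did or exceeded. In Chrna1 and in Chrng 2 of these were CAGCTG, a count reached by 1.26% of all windows. The Chrna1 copies began 92, 73 and 44 bases before the start, and the Chrng copies 155, 132 and 75 bases before it. Musk held 3 copies of CANNTG, 1 of them CAGCTG. Dok7, which has a pair of windows in the table, held 1 CANNTG in the upstream one and none in the other, and no CAGCTG. Chrne held 1 CAGCTG, as 13.0% of windows did at least, and it was the only gene of the 6 with the N-box, 76 bases before the start. The N-box occurs in 12.03% of all windows, so these matches describe the letters and not a bound site.

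In both knockouts the subunits common to fetal and adult receptors, Chrna1, Chrnb1 and Chrnd, rose against WT. In dKO against WT, 6 of the 7 tested genes rose and 0 fell, where 26.7% of all tested genes were called, 13% higher and 13.7% lower. In KO against WT 5 of the 7 rose and 0 fell, where 18.2% of tested genes were called, 8.73% higher and 9.43% lower. As the genes were chosen with earlier results of these data known, these counts are a description and do not test the list. Of all 10 genes, 5 had every dKO library above every WT library, where 26.8% of tested genes did not overlap, 13.1% higher and 13.6% lower in dKO. For KO against WT 7 of the 10 lay wholly above and 1 wholly below, where 27.3% of tested genes did not overlap, 14% higher and 13.2% lower. These counts include Chrng (above WT in both knockouts) and Musk (below WT in KO), which failed the filter. The shares cover tested genes only. Scaling by library totals in place of TMM moved the median of all genes to 0.25 in dKO and 0.20 in KO and turned the calls over all genes into 2421 higher and 844 lower in dKO and 1638 and 573 in KO, against 1367 and 1435 and 917 and 991 with TMM. The median log2 fold change of the 7 was 1.12 in dKO and 1.19 in KO, against 0.02 and 0.00 over all tested genes. Both comparisons use the same 4 WT libraries. In whole muscle a change in the number of nuclei or cells that express a gene and a change in the RNA made by each cannot be told apart.

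**Figure D1:**
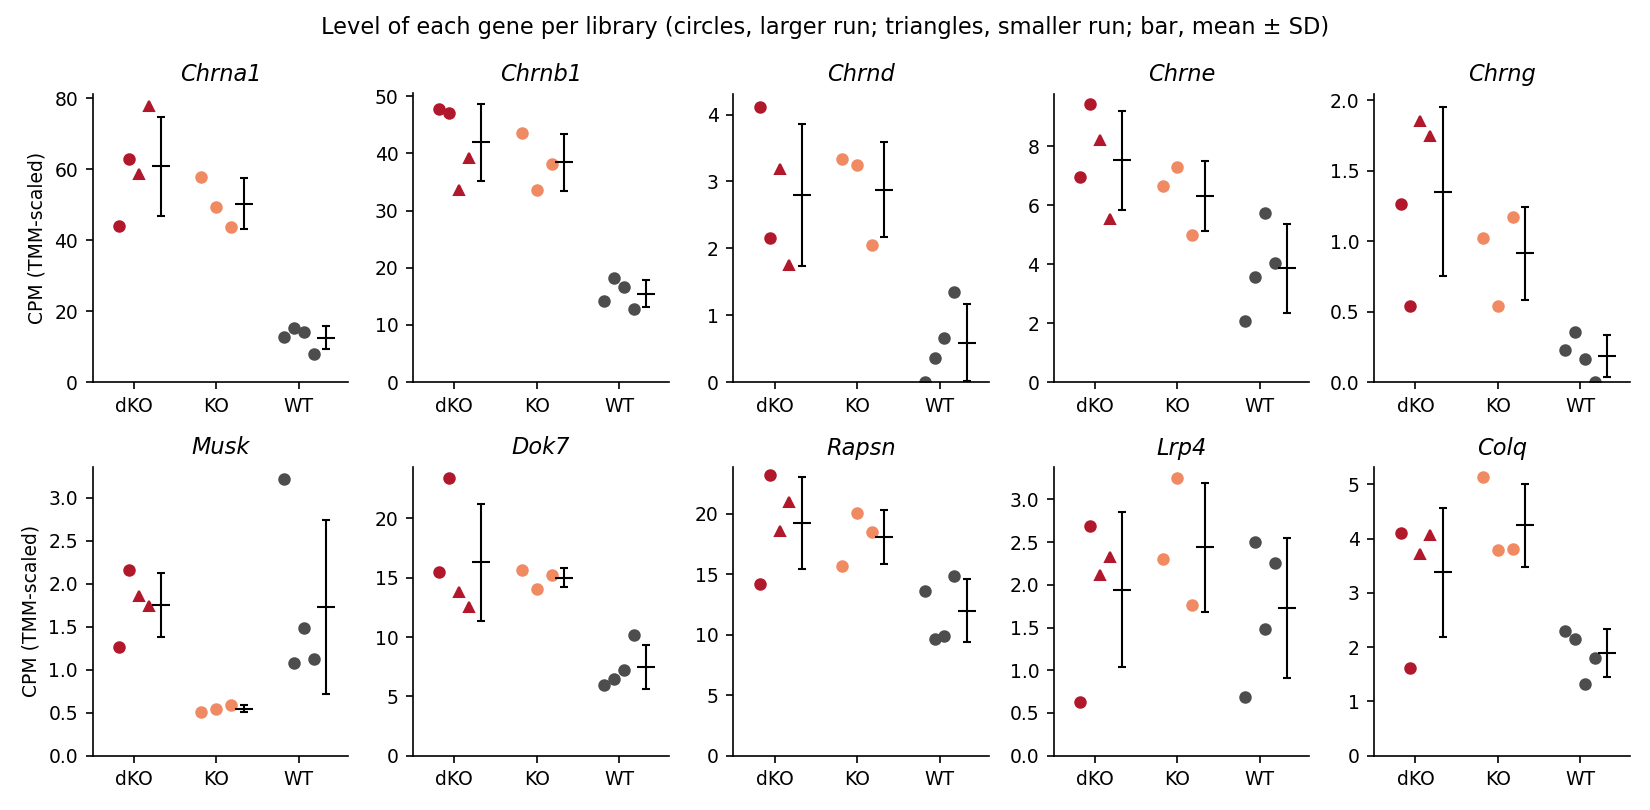
CPM (TMM-scaled) of the 10 genes in each library, in panels of their own with axes that start at 0, for dKO, KO and WT. Circles are libraries of the larger run, triangles those of the smaller run, and bars are mean ± SD. All 7 knockout libraries lie above all 4 WT libraries for Chrna1, Chrnb1, Chrnd, Chrng and Dok7, and the 3 KO libraries lie below all WT libraries for Musk. The WT values of Chrng and the KO values of Musk are under the floor of 3 counts.

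Chrna1, which encodes the alpha subunit that binds acetylcholine, was at 43.9, 63.0, 58.6 and 77.9 CPM in dKO, at 57.9, 49.3 and 43.7 CPM in KO, and at 12.7, 15.4, 14.1 and 7.89 CPM in WT. The lowest knockout library was thus well above the highest WT library, while dKO and KO overlapped. Its log2 fold change was 2.29 (SE 0.21, edgeR adjusted p = 2.02e-06) in dKO against WT and 2.01 (SE 0.23, adjusted p = 2.32e-05) in KO against WT. Chrnb1, the beta subunit through which rapsyn contacts the receptor, was at 47.7, 47.1, 33.7 and 39.2 CPM in dKO, at 43.6, 33.6 and 38.2 CPM in KO, and at 14.3, 18.2, 16.6 and 12.8 CPM in WT. Again the knockouts overlapped each other and neither reached down to WT. Its log2 fold change was 1.44 (SE 0.17, adjusted p = 1.53e-05) in dKO and 1.32 (SE 0.18, adjusted p = 0.000134) in KO. Both genes kept their calls in all 19 alternatives tried for dKO and all 18 for KO. The 3' end of Chrnb1 lies 12 bases from that of Zbtb4 on the other strand, and the strand setting of the counting is not given, so reads of the pair may mix. Zbtb4 had 93 to 164 counts in dKO, 76 to 140 in KO and 142 to 230 in WT before scaling. Its log2 fold change was -0.20 (adjusted p = 0.491) in dKO and -0.67 (adjusted p = 0.049) in KO against WT, and the part of Zbtb4 reads in the Chrnb1 count was not tested.

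Chrnd, the delta subunit, was a low-count gene, with 13, 8, 12 and 6 counts in dKO, 13, 12 and 7 in KO, and 0, 1, 4 and 6 in WT. That is 2.8 ± 1.06 CPM in dKO, 2.88 ± 0.71 CPM in KO and 0.59 ± 0.57 CPM in WT (SD, n = 4, 3 and 4), and every knockout library was above every WT library in CPM. The log2 fold change was 2.11 (SE 0.56, adjusted p = 0.0109) in dKO and 2.17 (SE 0.59, adjusted p = 0.0173) in KO. With Xist as a covariate the dKO value was 1.79 (adjusted p = 0.0861). It was 2.79 in dKO and 2.85 in KO without WT replicate 4, and the KO call was lost without KO replicate 1 (adjusted p = 0.0812). Chrne, the adult epsilon subunit, was at 6.95, 9.43, 8.22 and 5.52 CPM in dKO, at 6.67, 7.31 and 4.99 CPM in KO, and at 2.07, 3.58, 5.76 and 4.06 CPM in WT. WT replicate 3 lay inside the range of both knockouts. Chrne rose in dKO with a log2 fold change of 0.93 (SE 0.29, adjusted p = 0.0275), and in KO the value was 0.67 (SE 0.32, adjusted p = 0.158). The dKO call of Chrne held in 12 of 19 alternatives, and was lost without dKO replicate 2 or 3, without WT replicate 1 or 2, and without the smaller run (adjusted p from 0.0566 to 0.086). With Xist as a covariate its log2 fold change was 0.55 (adjusted p = 0.248).

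Chrng, the fetal gamma subunit, was close to the detection limit. It had 4, 2, 7 and 6 counts in dKO, 4, 2 and 4 in KO, and 1, 1, 1 and 0 in WT. In CPM every knockout library was above every WT library, but each WT library was under the floor of 3 counts, which stood for 0.493 to 1.07 CPM there. dKO replicate 2 (0.539 CPM) and KO replicate 2 (0.541 CPM) were also under their floors of 0.808 and 0.812 CPM. Summed over the group, dKO had 19 counts and WT had 3, a ratio of 7.94 after scaling by TMM-adjusted library totals, with a 95% exact interval of 2.34 to 41.9. KO had 10 counts in sum, a ratio to WT of 5.35 with an interval of 1.38 to 30.3. These intervals cover counting error only and not the spread between mice. Chrng did not pass the filter. Without a filter its log2 fold change was 2.72 (SE 0.87, adjusted p = 0.019) in dKO and 2.16 (SE 0.96, adjusted p = 0.172) in KO. Without the smaller run the dKO value was 2.12 (adjusted p = 0.292), and its adjusted p was 0.0661 without dKO replicate 3 and 0.0584 without WT replicate 4.

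The balance between fetal and adult subunits was taken as log2 of the Chrng count over the Chrne count, with 0.5 added to each. It was -2.32, -3.83, -2.07 and -1.58 in dKO, -2.56, -3.46 and -1.96 in KO, and -2.66, -2.81, -4.56 and -5.21 in WT. dKO replicate 2 and KO replicate 2 lay inside the WT range, so neither knockout separated from WT. The mean was higher than in WT by 1.36 in dKO (exact two-sided permutation p = 0.143) and by 1.15 in KO (exact p = 0.229), both with an adjusted p of 0.343 over the 3 contrasts. The difference of dKO from KO was 0.21 (exact p = 0.743, adjusted p = 0.743). The smallest p that these designs allow is 0.0286 for dKO against WT and 0.0571 for the contrasts with KO, so those with KO could not pass 0.05. In shares, Chrng made up 15.1% of the 126 pooled Chrng and Chrne counts in dKO (95% Wilson interval 9.87% to 22.4%), 12.5% of 80 in KO (6.93% to 21.5%) and 4.0% of 75 in WT (1.37% to 11.1%). The overlap of dKO with WT came from dKO replicate 2, and the other 3 dKO libraries lay above every WT library. Of those, replicates 3 and 4 were in the smaller run, which held no WT library. Within the larger run dKO replicates 1 and 2 were at -2.32 and -3.83, against -5.21 to -2.66 in WT. No shift of the balance was called with these libraries. These are shares of tag counts, which can be read between groups but do not rank one gene above another.

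**Figure D2:**
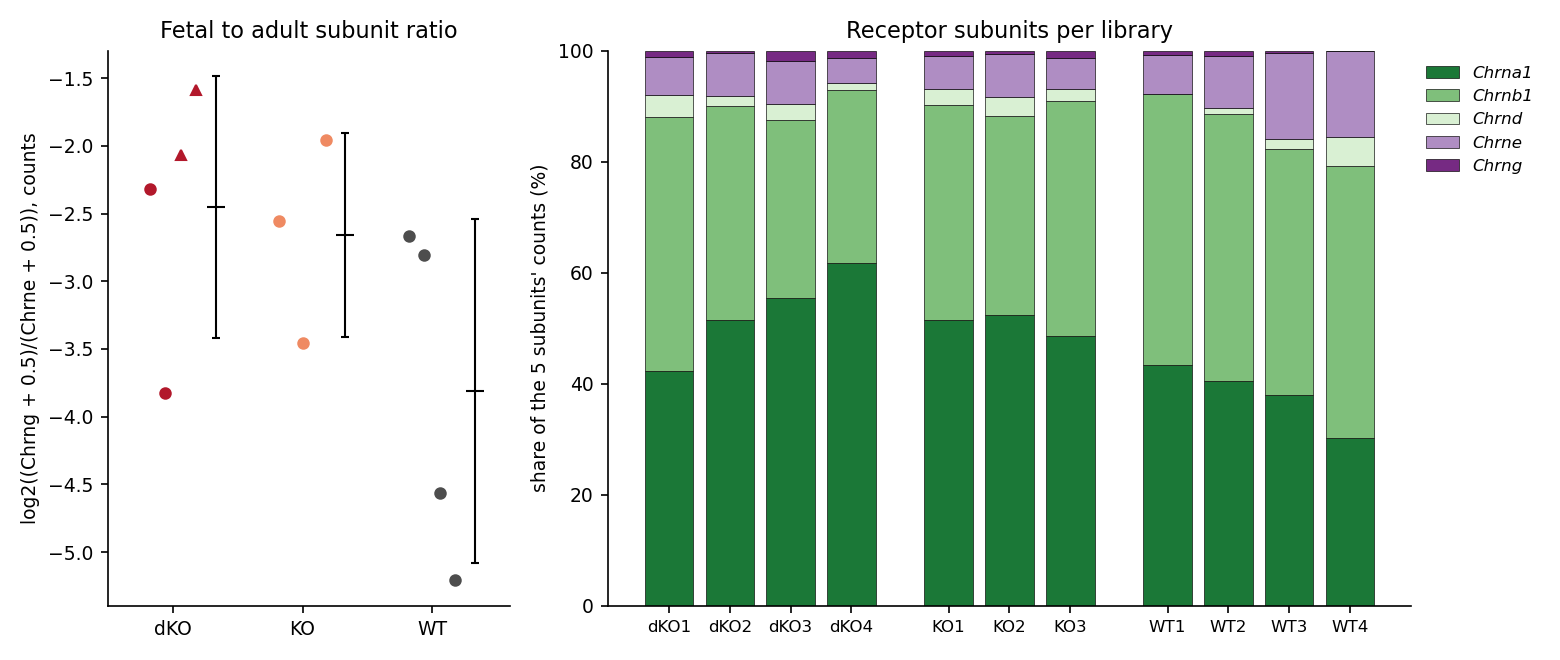
Left, log2 ratio of Chrng to Chrne counts (0.5 added to each) per library, with circles for the larger run, triangles for the smaller run and bars for mean ± SD. Right, the share of each subunit in the summed counts of the 5 subunits, in percent, with 1 bar per library. The ratio overlaps between all groups, and Chrna1 takes 42.2% to 61.8% of the counts in dKO, 48.5% to 52.5% in KO and 30.2% to 43.3% in WT.

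The 5 subunits together stood at 114 ± 11.4 CPM in dKO, 98.9 ± 12.0 CPM in KO and 32.7 ± 5.87 CPM in WT (SD, n = 4, 3 and 4). Within that sum Chrna1 held 52.8% ± 8.17 in dKO, 50.8% ± 2.04 in KO and 38.0% ± 5.66 in WT. Chrne held 6.64% ± 1.59 in dKO, 6.41% ± 1.20 in KO and 11.9% ± 4.27 in WT. dKO replicate 1, at 42.2% Chrna1, lay just below WT replicate 1, at 43.3%, and the other knockout libraries were above all WT libraries. The log2 count ratios of Chrna1 to Chrnb1, Chrnd and Chrne were tested after these values had been seen, as 9 tests over the 3 contrasts. Chrna1 over Chrnb1 was 0.52 ± 0.49 in dKO, 0.39 ± 0.18 in KO and -0.34 ± 0.24 in WT, and Chrna1 over Chrne was 2.99 ± 0.54 in dKO, 2.97 ± 0.21 in KO and 1.71 ± 0.73 in WT. For both ratios the knockout libraries did not overlap WT, and the exact permutation p was the smallest possible (0.0286 in dKO, 0.0571 in KO), but the adjusted p over the 9 tests was 0.129. Chrna1 over Chrnd overlapped between all groups (exact p from 0.571 to 0.886, adjusted p from 0.882 to 0.971).

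Among the clustering genes, Dok7 rose in both knockouts, Rapsn was called in dKO alone, and Musk and Lrp4 were too low to test. Dok7, the adaptor that activates MuSK from inside the fibre, was at 15.5, 23.4, 13.8 and 12.5 CPM in dKO, at 15.6, 14.1 and 15.3 CPM in KO, and at 5.98, 6.44, 7.24 and 10.1 CPM in WT. dKO replicate 2 was the highest library, and no knockout library fell to the WT range. The log2 fold change was 1.12 (SE 0.23, adjusted p = 0.00174) in dKO and 1.0 (SE 0.24, adjusted p = 0.00959) in KO. With the libraries that lack Xist alone, 1 of them dKO, the dKO value was 0.69 (adjusted p = 0.366), and this was the only alternative to lose a Dok7 call. Rapsn, the scaffold that binds receptors beneath the membrane, was at 14.2, 23.2, 18.6 and 20.9 CPM in dKO, at 15.6, 20.03 and 18.5 CPM in KO, and at 13.6, 9.65, 9.87 and 14.9 CPM in WT. dKO replicate 1 lay inside the WT range, and the 3 KO libraries lay just above it. The log2 fold change was 0.68 (SE 0.20, adjusted p = 0.0189) in dKO and 0.58 (SE 0.21, adjusted p = 0.0702) in KO, so the 2 values are close and lie on either side of the threshold. The dKO call was lost without dKO replicate 2, without WT replicate 2 or 3 and without the smaller run (adjusted p from 0.0545 to 0.106), and KO gained a call without WT replicate 4 (adjusted p = 0.0249), with library totals (0.0121) and on TPM (0.0291 with a pseudocount of 1). The 3' end of Rapsn overlaps the antisense gene Gm13778, which had at most 8 counts in any library.

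Musk, the kinase at the centre of clustering, differed in pattern from the subunits. It had 4, 8, 7 and 6 counts in dKO, 2, 2 and 2 in KO, and 14, 3, 9 and 5 in WT. In CPM the KO libraries (0.513, 0.541 and 0.587) lay below every dKO library (1.26 to 2.15) and every WT library (1.07 to 3.22). Each KO library was under its floor of 3 counts (0.769, 0.812 and 0.881 CPM), and WT replicate 2 was at its floor of 1.07 CPM. The KO levels are therefore not resolved at this depth. Pooled counts gave a KO to WT ratio of 0.311 (95% exact interval 0.106 to 0.756) and a dKO to KO ratio of 3.25 (1.3 to 9.70), for counting error only. Musk did not pass the filter, and without a filter its log2 fold change was -1.67 (SE 0.68, adjusted p = 0.119) in KO against WT, 1.64 (SE 0.70, adjusted p = 0.55) in dKO against KO and -0.03 (SE 0.52, adjusted p = 1) in dKO against WT. All KO libraries were also without Xist and from the larger run. Lrp4, the agrin receptor, had 2, 10, 8 and 8 counts in dKO, 9, 12 and 6 in KO, and 3, 7, 9 and 10 in WT, and the groups overlapped. Without a filter its log2 fold change was 0.19 (SE 0.48) in dKO and 0.49 (SE 0.50) in KO, with adjusted p of 0.88 and 0.645.

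Colq, whose collagen tail anchors acetylcholinesterase in the synaptic basal lamina, was at 4.11, 1.62, 3.71 and 4.07 CPM in dKO, at 5.13, 3.79 and 3.82 CPM in KO, and at 2.30, 2.15, 1.32 and 1.80 CPM in WT. All libraries of KO were above WT, and in dKO replicate 2 alone fell into the WT range. Colq rose in KO with a log2 fold change of 1.19 (SE 0.37, adjusted p = 0.0336), and in dKO the value was 0.85 (SE 0.36, adjusted p = 0.0898). Without dKO replicate 2 the dKO value was 1.09 (adjusted p = 0.0272). The KO call held in 7 of 18 alternatives, and its adjusted p was 0.0503 to 0.157 when any KO library or WT replicate 3 was left out and 0.0606 by DESeq2.

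**Figure D3:**
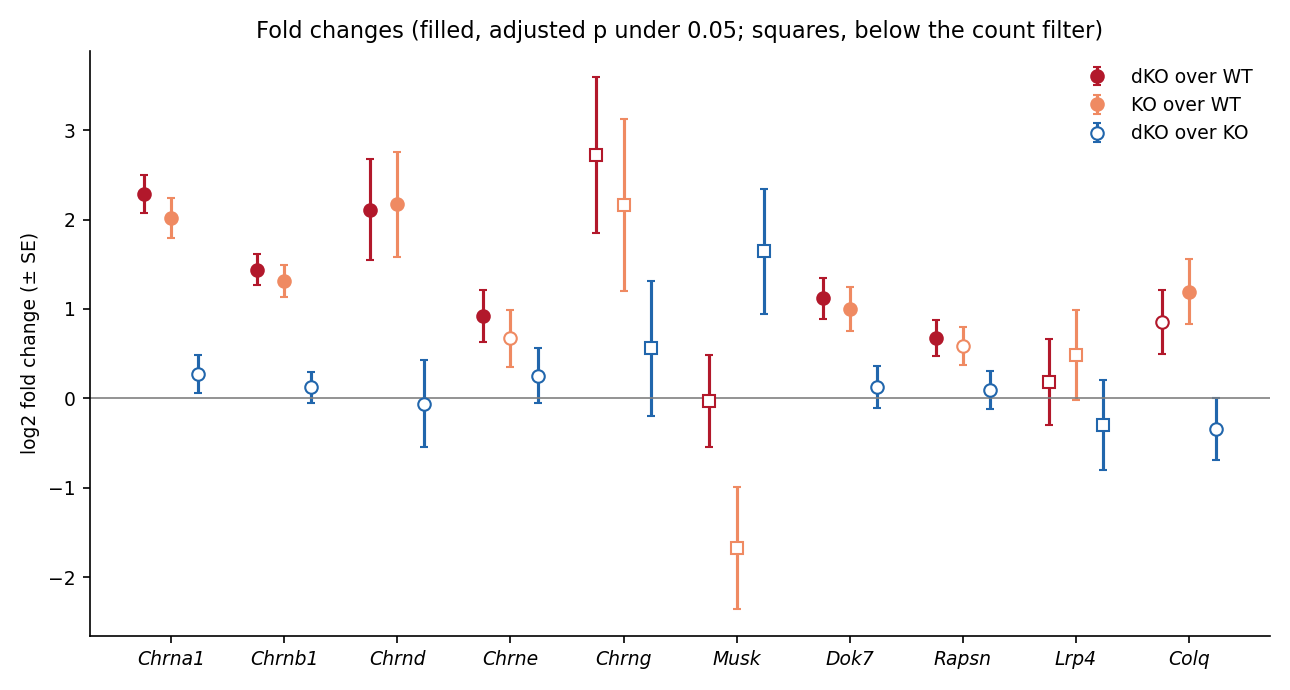
Log2 fold change ± SE of each of the 10 genes for dKO over WT, KO over WT and dKO over KO. Filled circles passed an adjusted p under 0.05 over all 10505 tested genes, open circles did not, and open squares are values without a filter for Chrng, Musk and Lrp4, which were below the filter. Chrna1, Chrnb1, Chrnd and Dok7 are filled in both contrasts with WT, and no gene is filled for dKO over KO.

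Between dKO and KO edgeR called 0 of the 7 tested genes, and 3 of all 10505 genes (0.0286%). At an unadjusted p under 0.05, 997 genes passed, and DESeq2 called 54 genes higher and 48 lower in dKO, none of them among the 7. A single gene was called higher in dKO (0.00952% of tested genes) and 2 lower (0.019%). The log2 fold changes of dKO over KO were 0.27 for Chrna1 (SE 0.21, adjusted p = 0.733), 0.12 for Chrnb1 (SE 0.17, adjusted p = 0.886) and -0.06 for Chrnd (SE 0.49, adjusted p = 0.987). For Chrne the value was 0.25 (SE 0.31, adjusted p = 0.858), for Dok7 0.12 (SE 0.23, adjusted p = 0.924), for Rapsn 0.09 (SE 0.21, adjusted p = 0.935) and for Colq -0.34 (SE 0.35, adjusted p = 0.825). The signs of Chrnd, Chrne, Dok7, Rapsn and Colq changed under some alternatives. A p that misses the threshold does not show that dKO and KO are alike for these genes. Musk alone of the 10 had groups that did not overlap, where 12.2% of tested genes did not, 5.18% higher and 7.03% lower in dKO. Musk was not among those tested genes, and its KO libraries were under the floor of 3 counts.

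Of 46 other genes of the junction, 34 were tested. In dKO against WT 10 rose and 4 fell, with a median log2 fold change of 0.08, and in KO 7 rose and 3 fell, with a median of 0.14. Between dKO and KO 0 of the 34 were called. The shares over all tested genes are those given above, 13% higher and 13.7% lower in dKO and 8.73% higher and 9.43% lower in KO. The count of rises in dKO was 6 without the smaller run, where 8.78% of all genes were higher, and 4 with the libraries that lack Xist alone, where 2.13% were. In those libraries the dKO calls of Etv5, Gabpb1, Col13a1, Nes, Cdk5r1, Ptpn11, Ctnnb1 and Apc were lost, with adjusted p of 0.0538 for Nes to 0.611 for Gabpb1.

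In the role of agrin, neuregulin and their receptors 1 of 5 genes was tested. Agrn, the gene of agrin, was at 8.51 ± 1.3 CPM in dKO, 6.69 ± 2.68 CPM in KO and 6.0 ± 1.44 CPM in WT (SD, n = 4, 3 and 4), with adjusted p of 0.164 in dKO and 0.736 in KO. The neuregulin receptor gene Erbb3 stood at 1.55 ± 0.47 CPM in dKO, 1.29 ± 0.41 CPM in KO and 0.94 ± 0.64 CPM in WT and was not tested. Of 3 tested transcription factors of the nuclei beneath the synapse, 2 rose in dKO and 1 in KO. Etv5, an ETS factor, was at 15.6 ± 4.46 CPM in dKO, 12.9 ± 2.35 CPM in KO and 6.56 ± 1.69 CPM in WT (adjusted p = 0.00122 in dKO and 0.017 in KO, and 0.0709 in KO without KO replicate 2). Gabpb1, the partner of the ETS factor GABP alpha, was at 3.75 ± 1.02 CPM in dKO, 2.74 ± 0.54 CPM in KO and 1.79 ± 0.29 CPM in WT (adjusted p = 0.0251 in dKO and 0.28 in KO). The Gabpb1 call held in 8 of 19 alternatives, and adjusted p was 0.0611 to 0.0884 without dKO replicate 1 or 3 or WT replicate 1.

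Of 6 tested genes of acetylcholinesterase and the synaptic basal lamina, 2 rose in dKO and 1 in KO. Ache, the enzyme that Colq anchors, was at 7.27, 9.43, 8.48 and 11.04 CPM in dKO, at 12.6, 5.14 and 9.39 CPM in KO, and at 2.30, 2.15, 2.8 and 2.25 CPM in WT. Every knockout library was above every WT library, and KO replicate 2 was the lowest of them. The log2 fold change was 1.90 in dKO (SE 0.29, adjusted p = 0.000168) and 1.89 in KO (SE 0.31, adjusted p = 0.000492), and both calls held in all alternatives. Col13a1, a transmembrane collagen of the synapse, was at 3.25 ± 0.29 CPM in dKO, 1.98 ± 0.51 CPM in KO and 1.20 ± 0.41 CPM in WT (adjusted p = 0.00752 in dKO and 0.24 in KO). Without the smaller run the dKO call was lost (adjusted p = 0.0695).

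Of 12 tested genes of the postsynaptic membrane and cytoskeleton, 5 rose in dKO and 4 in KO, and none fell. Ncam1, an adhesion molecule, was at 19.2 ± 6.05 CPM in dKO, 17.0 ± 3.5 CPM in KO and 6.40 ± 0.43 CPM in WT (adjusted p = 9.57e-05 in dKO and 0.000882 in KO). Nes, the intermediate filament protein nestin, was at 38.8 ± 6.50 CPM in dKO, 40.5 ± 8.39 CPM in KO and 15.3 ± 1.53 CPM in WT (adjusted p = 3.6e-05 in dKO and 9.04e-05 in KO). Sntb1, beta-1-syntrophin, was called in dKO (log2 fold change 1.29, adjusted p = 0.025). Its value was 2.02 without WT replicate 3, and its adjusted p was 0.0628 to 0.0754 without dKO replicate 1 or 4 or WT replicate 1, 2 or 4. In KO it was 0.61 (adjusted p = 0.364). Macf1, a cytoskeletal linker named after its values were seen, was called in both knockouts, at 44.9 ± 8.6 CPM in dKO, 51.4 ± 11.4 CPM in KO and 30.5 ± 5.48 CPM in WT (adjusted p = 0.0341 in dKO and 0.0138 in KO). For Macf1, dKO replicate 2 (36.6 CPM) lay below WT replicate 1 (37.7 CPM), and the dKO call was lost without the smaller run.

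Of 12 tested signalling partners of MuSK and rapsyn, 1 rose and 4 fell in dKO, and 1 rose and 3 fell in KO, beside the shares over all genes given above. Cdk5r1, the activator of the kinase Cdk5, was at 3.34 ± 0.72 CPM in dKO, 3.66 ± 0.71 CPM in KO and 0.68 ± 0.52 CPM in WT (log2 fold change 2.34 in dKO and 2.46 in KO, adjusted p = 0.00164 and 0.00238, and 3.04 and 3.16 without WT replicate 1). Ptpn11, the phosphatase SHP2, fell to 31.8 ± 2.28 CPM in dKO and 35.7 ± 2.99 CPM in KO, against 53.2 ± 11.5 CPM in WT (adjusted p = 0.0029 in dKO and 0.0322 in KO). Ctnnb1, beta-catenin, fell to 133 ± 12.0 CPM in dKO and 145 ± 1.95 CPM in KO, against 196 ± 28.6 CPM in WT (adjusted p = 0.00339 in dKO and 0.0363 in KO, and 0.0616 in dKO without the smaller run). Apc, an adaptor of the Wnt pathway, fell to 20.4 ± 3.68 CPM in dKO and 19.7 ± 5.35 CPM in KO, against 36.0 ± 6.38 CPM in WT (adjusted p = 0.00542 in dKO and 0.00944 in KO). The KO call of Apc was lost without KO replicate 1 (adjusted p = 0.0711), the dKO call with Xist as a covariate (0.0709), and both on TPM (0.108 to 0.156). The fourth fall in dKO was Crk, an adaptor that binds Dok7, named after its values were seen (log2 fold change -0.92, adjusted p = 0.0078 in dKO, and -0.65, adjusted p = 0.0792 in KO). The KO falls of Ptpn11 and Ctnnb1 held in 7 of 18 alternatives each, with adjusted p up to 0.119 when 1 library of either group was left out.

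**Figure D4:**
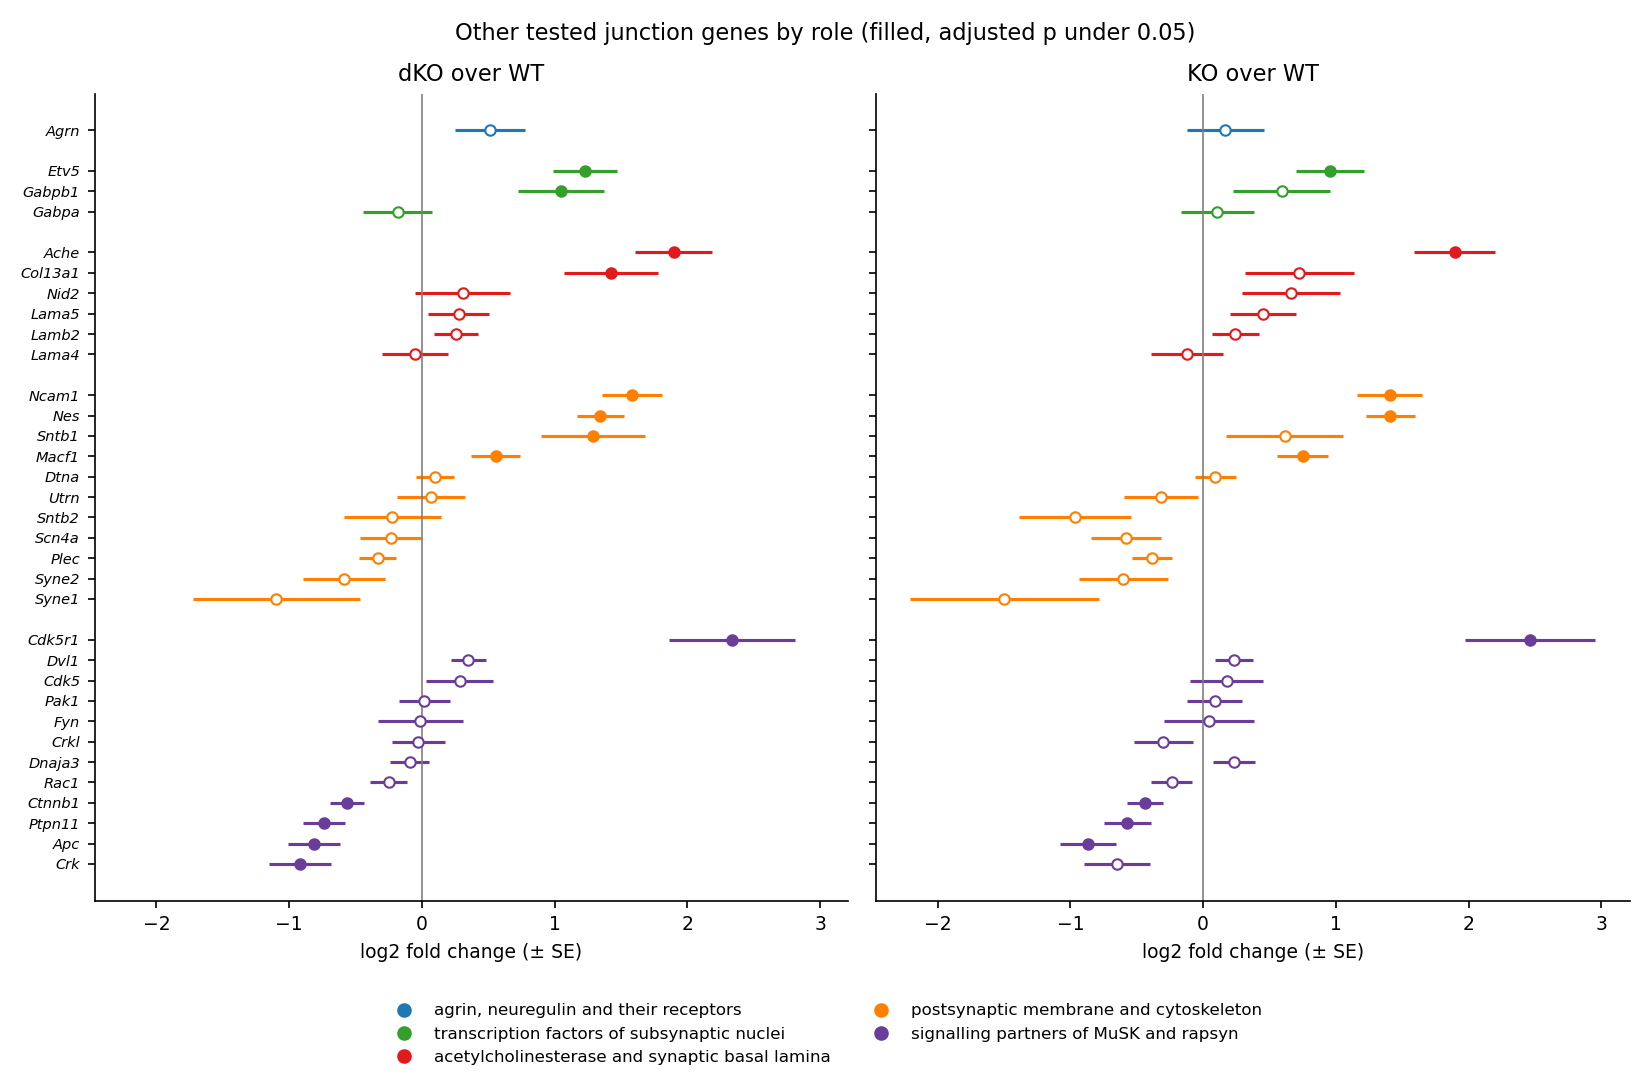
Log2 fold change ± SE of 33 of the 34 other tested junction genes, grouped by role, for dKO over WT on the left and KO over WT on the right. Filled points passed an adjusted p under 0.05. In dKO 9 of the genes drawn lie filled to the right of 0 and 4 to the left, and all 4 on the left are signalling partners.

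Regulators that act in denervated muscle were described from a list of 11 genes, 9 of them tested, of which 4 rose and 1 fell in dKO and 3 rose and 2 fell in KO. Over all tested genes 13% were higher and 13.7% lower in dKO, and 8.73% higher and 9.43% lower in KO. The median log2 fold change of the 9 was 0.10 in dKO and -0.32 in KO. Named after their values were seen, Hdac4 (0.10), Gadd45a (-0.22) and Dach2 (-1.10) were not called in dKO. Hdac9 was not tested, and all dKO libraries lay below all WT libraries for it. Without a filter its dKO log2 fold change was -1.28 (edgeR adjusted p = 0.041). Myog was at 129, 176, 94.6 and 77.0 CPM in dKO, at 81.5, 36.5 and 82.5 CPM in KO, and at 4.83, 2.15, 9.54 and 3.61 CPM in WT. The lowest knockout library was KO replicate 2, still above every WT library. The log2 fold change was 4.46 in dKO (SE 0.45, adjusted p = 3.91e-05) and 3.62 in KO (SE 0.46, adjusted p = 0.000361). Myod1, a myogenic factor that also binds E-boxes, was at 33.4 ± 2.58 CPM in dKO, 23.4 ± 3.21 CPM in KO and 10.7 ± 1.82 CPM in WT (adjusted p = 3.5e-06 in dKO and 0.000354 in KO). All dKO libraries were above all KO libraries for Myod1, but the difference was not called (log2 fold change 0.51, SE 0.17, adjusted p = 0.304). Runx1, a factor induced in denervated fibres, was at 10.7 ± 1.76 CPM in dKO, 7.87 ± 1.19 CPM in KO and 3.30 ± 1.68 CPM in WT (adjusted p = 0.000471 in dKO and 0.0111 in KO, and 0.0653 in KO without KO replicate 1). Cdkn1a, the cell-cycle inhibitor p21, was at 72.1 ± 5.24 CPM in dKO, 37.0 ± 3.61 CPM in KO and 46.9 ± 11.8 CPM in WT. Cdkn1a rose in dKO (adjusted p = 0.0103, but 0.0749 with Xist as a covariate and 0.54 with the libraries that lack it alone), was not called in KO (log2 fold change -0.35, adjusted p = 0.198), and the difference of dKO from KO was 0.96 (SE 0.18, adjusted p = 0.0791, and 0.000896 without a filter). The tested genes that fell, named after their values were seen, were the ubiquitin ligases of muscle wasting, Trim63 and Fbxo32. Trim63 fell to 229 ± 47.3 CPM in dKO and 159 ± 21.0 CPM in KO, against 470 ± 250.1 CPM in WT (adjusted p = 0.0222 in dKO and 0.00698 in KO). WT replicate 3 stood highest for Trim63, at 840 CPM, and dKO replicate 2 (296 CPM) reached WT replicate 2 (295 CPM). Without a filter the dKO call of Trim63 was lost (edgeR adjusted p = 0.0766). Fbxo32 fell to 242 ± 26.4 CPM in KO, against 514 ± 190.3 CPM in WT (adjusted p = 0.0125), and was at 334 ± 22.5 CPM in dKO (adjusted p = 0.0729 against WT). WT replicate 4, at 235 CPM for Fbxo32, lay inside the KO range of 225 to 272 CPM.

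Of 11 other nicotinic subunit genes, most of them neuronal, 7 had no count in any library and 3 had at most 4 counts over all libraries. The exception was Chrna9, known from inner ear hair cells, which is named here after its values were seen. Chrna9 was at 10.1, 18.6, 7.42 and 8.14 CPM in dKO, at 2.82, 2.44 and 0.294 CPM in KO, and at 0.230, 0.358, 4.28 and 0 CPM in WT. The 4 dKO libraries were above all others, and WT replicate 3 stood apart in its group. The log2 fold change was 2.89 (SE 0.77, adjusted p = 0.0183) in dKO and 0.35 (SE 1.04, adjusted p = 0.856) in KO. Without WT replicate 3, the only WT library with Xist, it was 5.73 in dKO (adjusted p = 6.83e-05) and 3.18 in KO (adjusted p = 0.0418), and without a filter the dKO call was lost (adjusted p = 0.0725). The difference of dKO from KO was 2.53 (SE 0.85, adjusted p = 0.357).

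**Figure D5:**
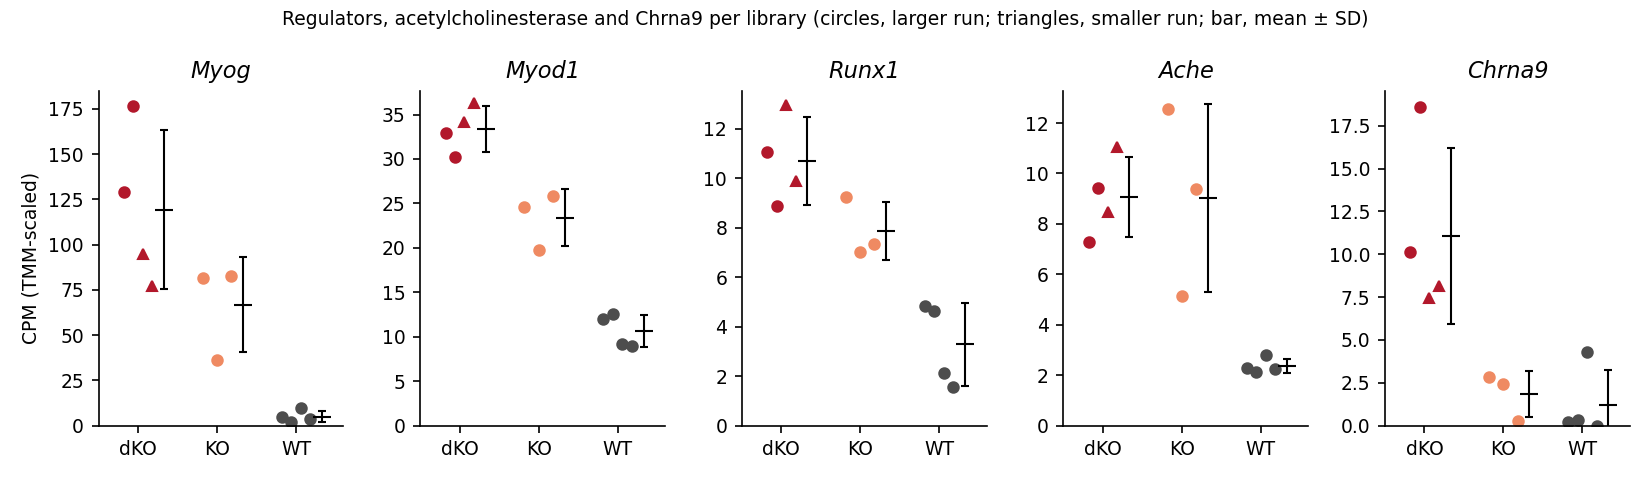
CPM (TMM-scaled) per library of the regulators Myog, Myod1 and Runx1, of the acetylcholinesterase gene Ache and of Chrna9, for dKO, KO and WT, with axes that start at 0. Circles are libraries of the larger run, triangles those of the smaller run, and bars are mean ± SD. All knockout libraries lie above WT for Myog, Myod1, Runx1 and Ache, and for Chrna9 WT replicate 3 lies above the KO libraries.

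Markers of other cells were measured beside these genes. Over all tested genes 13% were higher in dKO and 8.73% in KO. The 9 Schwann cell markers summed to 138 to 334 CPM in dKO, 97.9 to 247 CPM in KO and 110 to 135 CPM in WT, and of the 7 tested 2 (Pmp22 and Ncmap) rose in dKO and 0 in KO. The highest sum was that of dKO replicate 2, which also had the highest Dok7, Chrne and Rapsn. The 7 macrophage markers summed to 128 to 165 CPM in dKO, 88.8 to 188 CPM in KO and 63.6 to 119 CPM in WT, with 4 higher in each knockout. The 7 markers of fibro-adipogenic cells summed to 1044 to 1221 CPM in dKO, 933 to 1049 CPM in KO and 578 to 906 CPM in WT, with 5 higher in dKO and 4 in KO. The 6 satellite cell markers summed to 25.3 to 33.7 CPM in dKO, 27.9 to 38.5 CPM in KO and 24 to 30.4 CPM in WT. Of these 6, 3 were tested and none was called. Pax7, Myf5 and Calcr were too low to test, with Calcr at 0 or 1 count in every library. The 5 endothelial markers summed to 99.1 to 127 CPM in dKO, 109 to 130 CPM in KO and 99.2 to 176 CPM in WT, with none called. The 6 fibre markers summed to 76619 to 93809 CPM in dKO, 77985 to 82819 CPM in KO and 75878 to 84425 CPM in WT, with 3 higher and 2 lower in each knockout. The part of these cells, of Xist and of the run in the results above was not tested beyond the values given.

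The libraries that lack Xist, 1 dKO, 3 KO and 3 WT, gave 2 of the 10 genes as higher in dKO (Chrna1 and Chrnb1) and 3 in KO (Chrna1, Chrnb1 and Dok7). Over all 11194 genes then tested 2.13% were higher in dKO and 4.96% in KO. Without the smaller run 4 rose in dKO and 4 in KO. These 4 were Chrna1, Chrnb1, Chrnd and Dok7 in each. Over all 10764 genes then tested 8.78% were higher in dKO and 7.12% in KO.

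Levels of different genes were set beside each other per length, on the deposited TPM, in which counts are scaled by transcript length. In WT, Rapsn (7.37 ± 1.32 TPM), Chrne (6.46 ± 2.57) and Chrnb1 (6.37 ± 1.23) were highest and did not differ beyond their spread, followed by Dok7 (2.65 ± 0.54) and Chrna1 (2.50 ± 0.74), and Colq, Musk, Lrp4, Chrnd and Chrng were under 1 TPM on average. In dKO, Chrnb1 was at 19.2 ± 3.32 TPM, Chrne at 14.8 ± 3.83, Chrna1 at 13.3 ± 2.42 and Rapsn at 13.2 ± 2.01 (SD, n = 4). On the TPM scale Chrna1 thus stood beside the genes that were above it in WT. In KO the same 4 genes were at 16.9 ± 1.83, 11.8 ± 2.20, 10.7 ± 1.41 and 12.1 ± 1.75 TPM (SD, n = 3). Reads of 3' tags do not scale with transcript length, so dividing by it brings a length effect into TPM. Tag counts rank these genes differently. By tags Chrna1 was at 12.5 ± 3.28 CPM in WT and Chrne at 3.87 ± 1.52 CPM, the reverse of their order by TPM. The ranks above hold for the TPM scale only, and neither rank measures transcripts directly.

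Within groups no common variation of the genes was seen, but the counts limit what could be seen. The spread of Chrnd, Chrne, Dok7 and Colq in KO was below counting error, while Chrna1 and Chrnb1 varied beyond it in every group. The correlations therefore cannot decide whether the genes vary together. Over the 21 pairs of the 7 tested genes, 7 had a positive correlation of log2 CPM after the group means were removed, with a median r of -0.14 and a range of -0.69 to 0.72 over the 11 libraries, which differ in depth. The genes most like the mean profile of the 7 over the 11 libraries were Kcne1l, Cox8a, Tuba1b, Psmb1, Cct4, Hnrnpa1, Tubb4b and Rplp2 (r from 0.976 to 0.987, among 9748 genes). The most opposite were Zfp652, Ccnk, Ibtk and Ttll7 (r from -0.989 to -0.979). For Chrna1 alone they were Fam174b, Rpl24 and Prkar1a (r about 0.973), for Chrne Adgrd1, Igfbp4 and Aacs (r from 0.935 to 0.953) and for Chrng Kdelr3, Osgin2 and Sytl2 (r from 0.948 to 0.969). The libraries behind each r share genotype groups and depth, and r is given as a description.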

How the data were processed

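Gene expression was measured by 3' tag sequencing of 11 libraries, from 450 ng of RNA each per the labels. Per the submitters' processing notes, the tools were RSEM 1.3.3, STAR 2.7.0 and fastp 0.20.0 and the build was GRCm38 (mm10). The annotation release and strand setting are not given in the sources used here. The deposited expected counts are RSEM estimates per Ensembl gene, of which 2.25% were not whole, and they were rounded. The deposited TPM values were scaled by transcript length by the authors and served as an alternative and to compare levels between genes. A further 6 columns matched no sample here and were not used.

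Expected counts of all 11 libraries were fitted together with edgeR 4.0.16 (robust quasi-likelihood test, TMM, filterByExpr with a minimum count of 10) in R 4.3.3. This left 10505 genes with 99.54% of counts, 8 residual degrees of freedom and a biological coefficient of variation of 20.6%. P-values were adjusted by Benjamini-Hochberg over all tested genes, with a threshold of 0.05. CPM values are TMM-scaled. Alternatives used DESeq2 1.42.0, limma 3.58.1 on log2 TPM, no filter and left-out libraries. Ratios of subunits were tested by exact permutation over libraries (Python 3.11.15, numpy 2.4.6). Scripts were tested on simulated data. Libraries had 2791339 to 6328533 counts, and intervals and floors of 3 counts cover counting error only. The 15 pairs of libraries within a group differed beyond counting noise (lowest chi-square per degree of freedom 3.336). Positions of neighbouring genes come from GENCODE M21. The genes and lists were chosen with earlier results of these data known. All 10 genes are named; of each related list, up to 4 genes with the smallest adjusted p in dKO against WT are named, or, where none passed, the 2 with the highest mean CPM. Of the other junction genes, 1 is counted in the totals of its list but is not reported here by itself.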

Additional observations from a re-analysis of the deposited data

Results flagged for a closer look

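In 60 groups of 4 libraries checked, 3 had a library far from the others, and chance alone flags about 1 in 20. Colq in dKO replicate 2 was at 1.62 CPM, while the other dKO libraries were at 3.71 to 4.11 CPM. Sntb1 in WT replicate 3 was at 8.39 CPM, while the other WT libraries were at 2.25 to 2.76 CPM. Chrna9 in the same WT library was at 4.28 CPM, while the other WT libraries were at 0 to 0.358 CPM. Without the library concerned, Colq was called in dKO against WT, and the differences of Sntb1 and Chrna9 from WT were larger, with values given in the report.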

How the results depend on the processing

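No paired analysis was possible because replicate numbers follow accession order and tie no samples across groups. Of 257 values that answer a comparison under an alternative, 236 kept their direction and side of the threshold or stayed within 1.5 times, 18 moved and 3 reversed. Of 1274 values of single genes and added ratios, 1098 kept direction and side, 123 lost the threshold, 11 gained it and 42 changed sign. The cause of each change was not tested, apart from fewer libraries in some settings. With the libraries that lack Xist alone, the genes called higher were 2 of the 10 in dKO and 3 in KO, and of the other junction genes 4 were higher and 0 lower in dKO and 1 lower in KO. Without the smaller run 6 of the other junction genes were higher in dKO and 1 lower in KO. The number lower in KO was also 1 with library totals and in a fit of just the 2 groups compared, and on TPM 0 were lower in KO and 2 in dKO with either pseudocount. Leaving out 1 library gave 3 to 6 of the 10 genes as higher in KO and 0 to 5 other junction genes as lower in KO.

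Several small differences changed sign. The dKO minus KO difference in the Chrng to Chrne ratio was -0.42 without the smaller run and -0.19 to 0.67 when 1 library was left out. For dKO over KO, Chrnd was 0.092 with the run as a covariate and 0.094 without the smaller run, with -0.28 to 0.11 over left-out libraries. Chrne was -0.37 and Colq 0.038 with the Xist covariate, and Chrne was -0.19 and Dok7 -0.25 with libraries that lack Xist. Dok7 was -0.0038 with the Xist covariate and -0.11 to 0.23 over left-out libraries, and Rapsn -0.0089 to 0.22. Against WT, Agrn in KO was -0.016 with libraries that lack Xist and -0.20 to 0.36 over left-out libraries, and Chrna9 in KO was -0.071 to 3.18. Without a filter, Musk in dKO against WT was 0.23 with library totals, 0.10 with the Xist covariate and -0.19 to 0.43 over left-out libraries. Lrp4 was -0.011 with the run covariate, -0.016 without the smaller run and -0.076 to 0.45 over left-out libraries, and Chrng in dKO over KO was -0.034 with the run covariate and -0.051 without the smaller run. Of the ratios added after seeing the data, without the smaller run the dKO minus KO difference was -0.24 for Chrna1 over Chrnb1, -0.0069 for Chrna1 over Chrnd and -0.30 for Chrna1 over Chrne. Over left-out libraries it was -0.021 to 0.35 for Chrna1 over Chrnb1 and -0.25 to 0.13 for Chrna1 over Chrne. Chrna1 over Chrnd in dKO minus WT was 0.16 with 1 count added, 0.33 on TPM, 0.67 with libraries that lack Xist and -0.89 to 0.56 over left-out libraries, and in KO minus WT it was 0.002 on TPM and -1.22 to 0.23 over left-out libraries. Depth limits Chrng, Musk, Lrp4 and Chrnd, with at most 14 counts in any library.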
